A study of Mus musculus with 4 samples.

Results

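The amino acid and neurotransmitter-type transporter genes of the Slc1, Slc3, Slc6, Slc7, Slc36, Slc38 and Slc43 families were followed in livers of Utx knockout and wild-type mice after acetaminophen. They were taken by name: of 67 rows of the deposited table whose gene name fits these families, 3 were antisense RNAs and Slc7a11 was left out by the rule. This left 63 protein-coding genes of 54149 genes in all. One of them, Slc7a6os, carries the name only because it lies on the strand opposite to Slc7a6 and does not encode a transporter, which leaves 62 transporter genes. The rule goes by name and biotype and uses no measured value, though these families were picked with earlier results of these data known.

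The Utx KO + APAP group held 2 RNA libraries from adult female mice with a liver-specific knockout of Utx (listed as Kdm6a, a histone H3 lysine 27 demethylase). The WT + APAP group held 2 libraries from control mice matched for age and sex. All mice were of a C57BL/6 x 129S4/SvJae background, had been fasted for 16 h and had received 300 mg/kg acetaminophen (APAP), whose overdose is toxic to hepatocytes, by intraperitoneal injection. Each library pooled liver RNA of 2 mice, so the spread reported below is that between pools. The labels do not state the driver of the knockout, the age of the mice beyond adult, or the time between dosing and tissue collection. No untreated liver was analysed here, so effects of the drug and of fasting cannot be told apart.

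These proteins carry amino acids and related small molecules across cell and lysosome membranes. Slc3 proteins are heavy subunits that bring Slc7 light subunits to the membrane, where the pair exchanges one amino acid for another. Slc38 and Slc1 proteins use the sodium gradient or exchange to move glutamine, alanine, serine or glutamate. Slc6 proteins take up glycine, GABA, taurine, betaine, creatine and the monoamine transmitters, and Slc36 and Slc43 proteins carry small or large neutral substrates. In liver, uptake of alanine and glutamine feeds glucose and urea production during fasting, and several transporter genes respond to amino acid shortage through the transcription factor ATF4.

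Expression was given by the authors as FPKM (fragments scaled to gene length and to library depth), 1 value per gene and library. The reads recovered from these values came to 17804730 and 16330451 in the KO pools and to 16580979 and 16669038 in the WT pools. Kdm6a was measured at 2.20 and 2.12 FPKM in KO pools, against 3.40 and 3.85 FPKM in WT pools. It was lower in both KO pools but did not pass the test (log2 fold change -0.63, SE 0.13, limma adjusted p = 0.0715). Cells other than hepatocytes are in the same RNA, and their part in the Kdm6a values was not tested. The 9 hepatocyte markers found, Alb among them, summed to 42974 and 32886 FPKM in KO pools and 37255 and 45677 FPKM in WT pools, with 0 past the threshold (and 0 with an unadjusted p under 0.05). Of 16 neutrophil markers, 11 were tested, 4 fell and 0 rose, and the list summed to 43.02 and 38.8 FPKM in KO pools, against 125 and 191 FPKM in WT pools. Over all tested genes, 3.14% were called lower and 1.60% higher, which stands beside the counts of each marker list. Among the 11 neutrophil markers, 9 had an unadjusted p under 0.05, all lower (81.8%, beside 27.1% of all tested genes). The 8 cholangiocyte markers summed to 44.3 and 21.5 FPKM in KO pools, against 267 and 105 FPKM in WT pools, and 1 of the 5 tested, Sox9, fell. Most of that sum was Spp1, at 33.7 and 12.9 FPKM in KO pools, against 247 and 89.6 FPKM in WT pools. The 12 macrophage and Kupffer cell markers summed to 260 and 417 FPKM in KO pools, against 434 and 343 FPKM in WT pools, and 1 of the 12 tested, Cd163, fell. It was the 1 macrophage marker with an unadjusted p under 0.05 (8.33%, beside 27.1% of all tested genes). The 10 sinusoidal endothelial markers summed to 71.3 and 76.5 FPKM in KO pools, against 102 and 94.9 FPKM in WT pools, with 0 past the limma threshold. Among them 4 had an unadjusted p under 0.05, all 4 lower (40%, beside 27.1% of all tested genes in either direction). The 6 monocyte markers summed to 15.7 and 16.3 FPKM in KO pools, against 18.4 and 18.3 FPKM in WT pools, and 1 of the 3 tested, Ifitm6, fell. These markers did not move as one. Ifitm6, Plac8 and F13a1 were lower in both KO pools, Ly6c2 was higher in both, and Chil3 and Ccr2 overlapped. None of the markers of these lists was at 0 in all 4 libraries. The neutrophil marker Trem1 had 0 reads in both KO pools and 1 read in each WT pool, too few to compare. Camp, of the same list, was under the filter and went the other way, with 7 and 13 reads in KO pools, against 2 and 0 reads in WT pools. In bulk RNA, fewer cells of a type and less RNA per cell cannot be told apart.

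A minority of these genes reached the level needed for a test. Of the 63 genes, 12 were listed at 0 in all 4 libraries, 27 were above 0 with a mean under 1 FPKM, and 24 had a mean of at least 1 FPKM and were tested. Of the 24, 10 had a mean of at least 10 FPKM. None of the 24 passed the filter through a single group, since 0 had a KO mean and 0 had a WT mean under 1 FPKM. Just above the filter stood Slc43a2 with a mean of 1.70 FPKM, and just under it Slc38a6 with a mean of 0.951 FPKM.

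A few transporter genes made up most of the message. Slc38a3 and Slc38a4, sodium-coupled carriers of glutamine and of small neutral amino acids, and the heavy subunit gene Slc3a2 together took 64.8% and 60.2% of the summed transporter FPKM in KO pools, against 50.3% and 56.2% in WT pools. The sum over the 62 transporter genes was 618 and 490 FPKM in KO pools and 407 and 482 FPKM in WT pools. KO replicate 1 was the highest and WT replicate 1 the lowest, and KO replicate 2 and WT replicate 2 differed by less than the pools of either group differed from each other. The Slc38 family alone held between 52.9% and 62.0% of the sum in every pool. The Slc7 family held 5.12% and 5.39% in KO pools, against 9.20% and 7.49% in WT pools.

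**Figure D1:**
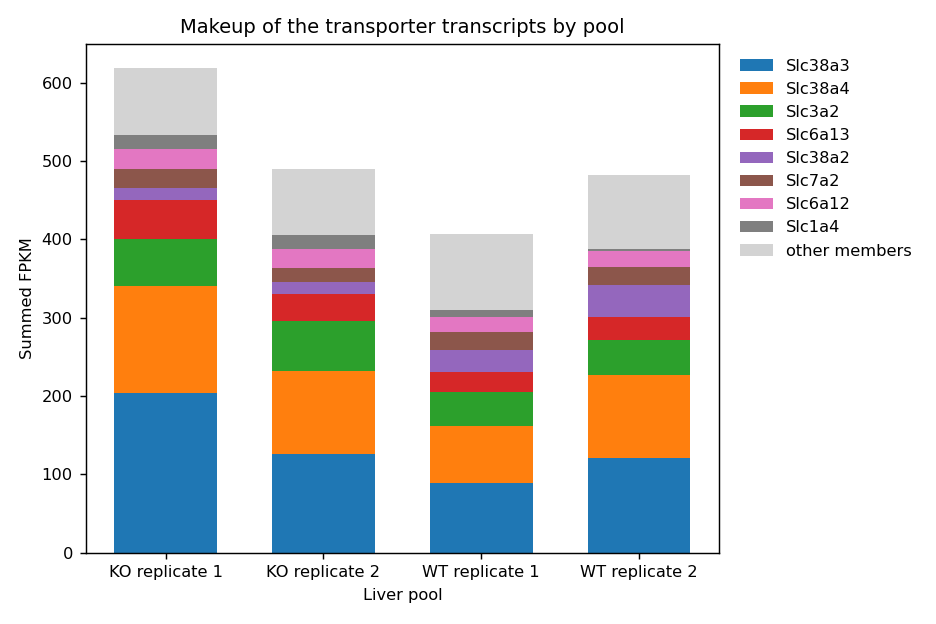
Summed FPKM (vertical axis) of the 62 transporter genes in each liver pool, stacked by gene, with KO pools on the left. Slc38a3, Slc38a4 and Slc3a2 fill at least 50.3% of every bar, and the Slc38a2 segment is thinner in both KO pools than in both WT pools.

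**Figure D2:**
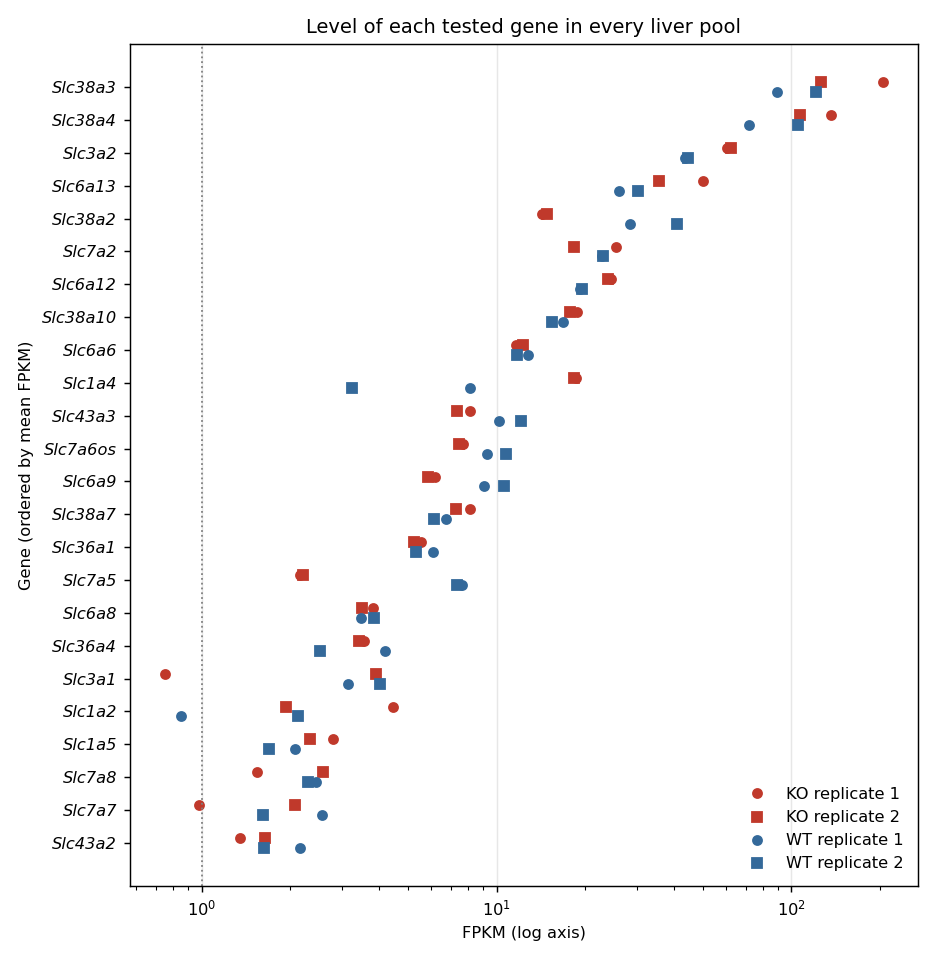
FPKM on a log axis for each of the 24 tested genes, with red for KO pools and blue for WT pools and a dotted line at 1 FPKM. Levels run from Slc38a3 at up to 204 FPKM to Slc3a1 at 0.754 FPKM in KO replicate 1, and the clearest gaps between red and blue are at Slc7a5, Slc38a2 and Slc1a4.

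Tests used limma on log2(FPKM + 0.5) across the 11900 genes that averaged 1 FPKM or more, with p-values adjusted by Benjamini-Hochberg and a threshold of 0.05. Among the 24 tested genes 1 fell and 0 rose, beside 3.14% of all tested genes called lower, 1.60% called higher and 4.74% called in either direction. Without adjustment, 9 of the 24 had p under 0.05, of which 4 were higher and 5 lower (37.5%, beside 27.1% of all tested genes). With limma voom on the recovered reads, 1 of the 24 was called higher and 3 lower. Their median log2 fold change was -0.016, beside 0.013 over all tested genes, and ran from -1.57 to 1.74. The groups did not overlap for 9 genes with KO above WT and for 5 with KO below WT, beside 31.6% and 29.9% of all tested genes. Of the 24 log2 fold changes, 11 were above 0 and 13 below.

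**Figure D3:**
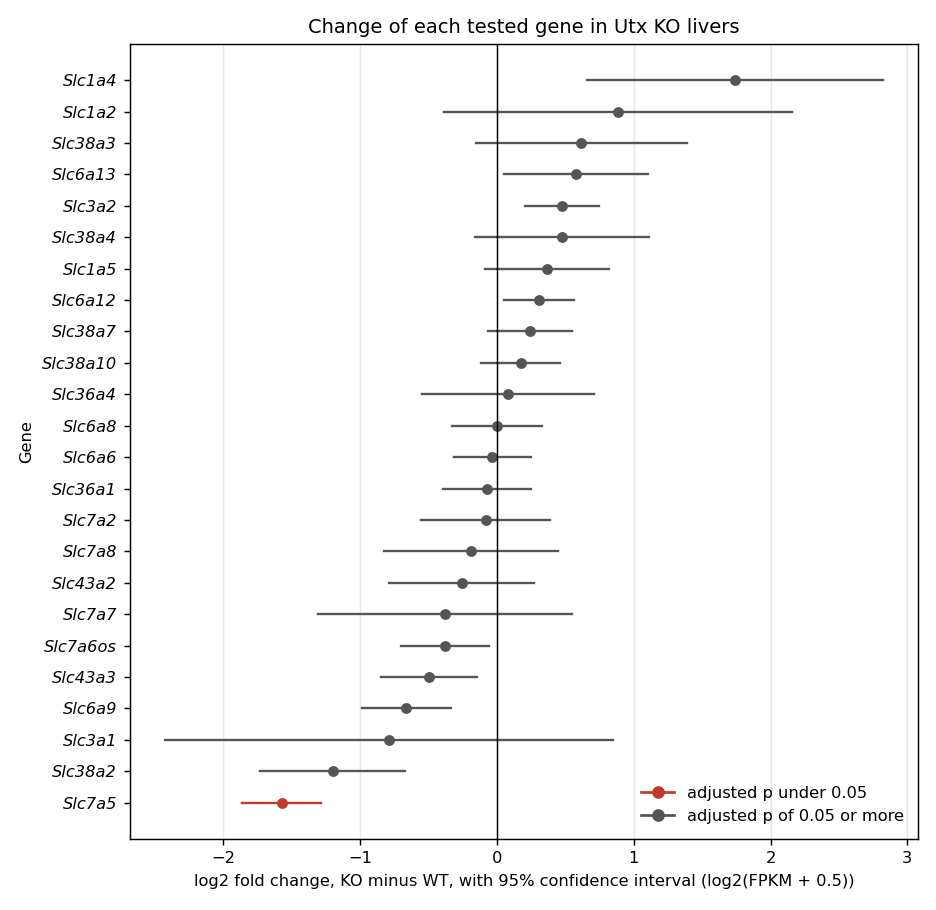
Log2 fold change, KO minus WT, of each of the 24 tested genes (points) with its 95% confidence interval (lines) from limma on log2(FPKM + 0.5). Slc7a5, in red at the bottom, was the gene past the threshold at -1.57, and Slc1a4 at the top had the largest positive value, 1.74, with a wide interval.

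The heteromeric exchangers are pairs of an Slc3 heavy and an Slc7 light subunit. Slc7a5 encodes LAT1, the light subunit that takes up leucine and other large neutral amino acids. It fell in the knockout and was the transporter gene that passed the test. Slc7a5 (ENSMUSG00000040010, GRCm38 chromosome 8, 121881150 to 121907694, minus strand) was measured at 2.16 and 2.20 FPKM in KO pools, against 7.62 and 7.34 FPKM in WT pools. The groups were well apart and the pools of each group lay close together. These values rest on 143 and 140 reads in KO pools and 478 and 428 reads in WT pools. On the log2 scale KO differed from WT by -1.57 (SE 0.11, with a 95% confidence interval of -1.86 to -1.29 and a limma adjusted p = 0.0258), and the KO mean was 0.292 times the WT mean. With a filter of 5 FPKM the gene was not tested. Over the other 16 alternatives the fold change stayed between -1.77 and -1.41 and the adjusted p between 0.00933 and 0.103. The call was lost with no filter on low values (adjusted p = 0.103), without KO replicate 1 (0.0609), without WT replicate 1 (0.0647) and without WT replicate 2 (0.0643). The summed neutrophil, cholangiocyte, sinusoidal endothelial and monocyte markers were also lower in both KO pools, by the values given above, as were the erythroid and platelet markers given with Slc6a4, and their part in the Slc7a5 result was not tested.

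Its heavy partner did not go the same way. Slc3a2, which encodes 4F2hc (CD98 heavy chain), was at 60.5 and 62.6 FPKM in KO pools, against 43.6 and 44.5 FPKM in WT pools. Both KO pools lay above both WT pools, but the gene did not pass (log2 fold change 0.48, SE 0.10, limma adjusted p = 0.0735). The ratio of Slc7a5 to Slc3a2 FPKM, which does not depend on how a library is scaled, was 0.0357 and 0.0352 in KO pools, against 0.175 and 0.165 in WT pools. The ratio was below 1 in every pool and lower in both KO pools than in both WT pools.

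Among the genes followed here, which leave out Slc7a11, the other light subunits that pair with Slc3a2 were low. Slc7a8, which encodes the neutral exchanger LAT2, was at 1.54 and 2.59 FPKM in KO pools and 2.43 and 2.29 FPKM in WT pools. Slc7a7, which encodes y+LAT1, an exporter of cationic amino acids, was at 0.982 and 2.08 FPKM in KO pools and 2.55 and 1.61 FPKM in WT pools. The groups overlapped for both genes (limma adjusted p = 0.649 and 0.530), and KO replicate 1 was the lowest pool for both. That pool was also the lowest for the summed macrophage markers, whose part in these values was not tested. Slc7a7 overlaps Oxa1l on the other strand over 232 bases, and its reads cannot be told apart there if the libraries were not stranded, which the labels do not state. Slc7a6, for y+LAT2, was under the filter at 0.356 and 0.294 FPKM in KO pools, against 0.738 and 0.598 FPKM in WT pools, on 23 to 57 reads per pool. Slc7a10 had at most 2 reads in any pool. Summed over these genes together with Slc7a5, the level was 5.06 and 7.16 FPKM in KO pools, against 13.3 and 11.9 FPKM in WT pools. Of this sum, Slc7a5 itself held 2.16 and 2.20 FPKM in KO pools, against 7.62 and 7.34 FPKM in WT pools.

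The second heavy subunit gene, Slc3a1, encodes rBAT, the partner of Slc7a9 in cystine uptake in the kidney. Slc3a1 was at 0.754 and 3.89 FPKM in KO pools and 3.13 and 4.02 FPKM in WT pools. Only KO replicate 1 stood apart, with 31 reads, and the gene did not pass (log2 fold change -0.79, SE 0.62, limma adjusted p = 0.458). Without KO replicate 1 its log2 fold change was 0.12. Slc3a1 also overlaps Prepl on the other strand over 767 bases. Slc7a9 was listed at 0 in all 4 libraries, as were Slc7a12 and Slc7a13. The related light subunit gene Slc7a15 was at 0.300 and 0.0585 FPKM in KO pools and 0.514 and 0.404 FPKM in WT pools.

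**Figure D4:**
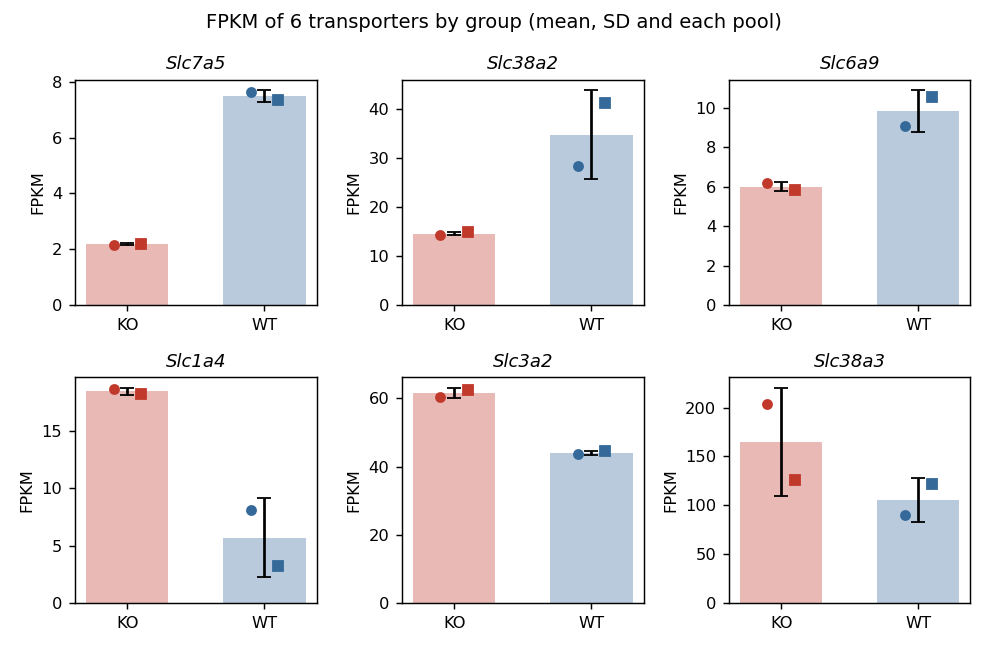
FPKM of 6 transporter genes in KO (red) and WT (blue) livers, with bars for the group mean, lines for the SD (n = 2 pools) and points for each pool. In the upper row both KO pools lie below both WT pools, and in the lower row both lie above them, with the widest spread at Slc38a3.

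The Slc38 family holds the system A and system N transporters, which take up glutamine, alanine and other neutral amino acids with sodium. Slc38a2 encodes SNAT2, the system A carrier that is known to be induced when cells lack amino acids. Slc38a2 (chromosome 15, 96687392 to 96699730, minus strand) was at 14.3 and 14.8 FPKM in KO pools, against 28.3 and 41.0 FPKM in WT pools. Both KO pools were below both WT pools, and the WT pools were further apart than the KO pools. On the log2 scale KO differed from WT by -1.20 (SE 0.20, with a 95% confidence interval of -1.73 to -0.67), and the limma adjusted p of 0.0504 just missed the threshold. It passed in 6 of 17 alternatives, over which the adjusted p ran from 0.0236 to 0.154 and the fold change from -1.46 to -0.94.

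The other 4 tested members of the family had the opposite sign, among them the liver-type genes Slc38a3 and Slc38a4. Slc38a3, for the system N glutamine carrier SNAT3, was at 204 and 126 FPKM in KO pools and 89.6 and 121.5 FPKM in WT pools. Slc38a4, for the system A carrier SNAT4, was at 136.5 and 107 FPKM in KO pools and 71.6 and 105 FPKM in WT pools. The groups did not overlap for either gene, but KO replicate 2 and WT replicate 2 lay close together, and neither passed (log2 fold change 0.62, SE 0.29, and 0.48, SE 0.24, limma adjusted p = 0.256 and 0.276). Leaving out 1 library moved Slc38a3 between 0.27 (without KO replicate 1) and 0.96 (without KO replicate 2), and Slc38a4 between 0.20 (without WT replicate 1) and 0.75 (without WT replicate 2). The ratio of Slc38a2 to Slc38a4 FPKM was 0.105 and 0.139 in KO pools, against 0.395 and 0.391 in WT pools. This ratio was chosen after the values were seen. Slc38a1, which lies 44478 bases from Slc38a2 on chromosome 15, had between 0.179 and 0.230 FPKM in every pool.

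Of the other Slc38 genes, Slc38a10 was at 18.8 and 17.7 FPKM in KO pools and 16.8 and 15.4 FPKM in WT pools. Slc38a7, for a lysosomal glutamine exporter, was at 8.11 and 7.29 FPKM in KO pools and 6.72 and 6.15 FPKM in WT pools. The groups of both genes did not overlap and neither passed (log2 fold change 0.17, SE 0.11, and 0.24, SE 0.12, limma adjusted p = 0.361 and 0.262). Slc38a9, for the lysosomal arginine sensor that acts on the kinase mTORC1, was under the filter at 1.02 and 0.758 FPKM in KO pools and 0.984 and 0.739 FPKM in WT pools, on 194 to 305 reads. Slc38a6 was at 1.06 and 1.03 FPKM in KO pools and 0.737 and 0.972 FPKM in WT pools. Slc38a5, Slc38a11 and Slc38a8 had at most 5 reads in any pool, and Slc38a5 had 0 reads in both KO pools, against 3 and 4 reads in the WT pools.

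The Slc1 family holds glutamate carriers and exchangers of small neutral amino acids. Slc1a4 encodes ASCT1, which exchanges alanine, serine and cysteine. Slc1a4 (chromosome 11, 20302180 to 20332713, minus strand) was at 18.6 and 18.2 FPKM in KO pools, against 8.11 and 3.24 FPKM in WT pools. The KO pools were close to each other and above both WT pools, which differed from each other by over 2-fold. On the log2 scale KO differed from WT by 1.74 (SE 0.41, with a 95% confidence interval of 0.66 to 2.82 and a limma adjusted p = 0.0852), the largest positive value of the 24 tested genes, and it did not pass. It passed in 2 of 17 alternatives, with limma voom on the recovered reads (adjusted p = 0.0416) and without WT replicate 1 (0.0465), over a range of 0.0416 to 0.216. Without WT replicate 2 the log2 fold change was 1.14, and without WT replicate 1 it was 2.34.

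Of the tested genes with an entry in the RefSeq promoter table, Slc1a4 had the largest positive and Slc38a2 the largest negative log2 fold change, and their promoters are shown because ATF4 is known to act on transporter genes through a response element shared with C/EBP factors. The pair was chosen after the values were seen. The windows are of build GRCm38.p6 and run from 250 bases before to 50 after the annotated start, at chr11:20332664-20332963 (minus strand) for Slc1a4 and chr15:96699679-96699978 (minus strand) for Slc38a2. They are printed 5′ to 3′ on the gene's strand, and capitals mark the letters TGATGNAA, a core of that element, found on either strand.
Slc1a4: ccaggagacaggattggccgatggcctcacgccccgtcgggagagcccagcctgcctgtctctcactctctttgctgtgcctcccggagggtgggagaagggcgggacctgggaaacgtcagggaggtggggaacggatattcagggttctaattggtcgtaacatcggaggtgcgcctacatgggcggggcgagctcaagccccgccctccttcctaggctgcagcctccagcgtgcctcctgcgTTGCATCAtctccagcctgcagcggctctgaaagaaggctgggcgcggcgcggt
Slc38a2: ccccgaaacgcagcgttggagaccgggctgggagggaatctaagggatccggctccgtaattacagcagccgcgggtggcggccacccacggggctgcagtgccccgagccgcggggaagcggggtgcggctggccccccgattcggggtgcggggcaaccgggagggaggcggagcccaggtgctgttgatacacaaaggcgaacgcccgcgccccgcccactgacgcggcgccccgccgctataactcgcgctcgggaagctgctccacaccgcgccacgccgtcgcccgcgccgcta

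In the Slc1a4 window the match is TTGCATCA, the element read on the other strand, and it spans the start site from base -4 to base 4. The Slc38a2 window held none, which says only that these letters are not in these 300 bases. RefSeq windows were matched by symbol for 45 of the 63 genes, among them 17 of the 24 tested, and Slc7a5 was not among the matched genes. Of the 45 genes, 3 held the letters: Slc1a4, Slc7a7 and Slc6a21. For comparison, 4.51% of all 27025 RefSeq genes had these letters in a window, as did 3.97% of all 32851 windows.

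The other Slc1 genes were expressed at lower levels. Slc1a5, for the glutamine exchanger ASCT2, was at 2.80 and 2.33 FPKM in KO pools and 2.07 and 1.69 FPKM in WT pools (limma adjusted p = 0.251), without overlap of the groups. Slc1a2, for the glutamate carrier GLT1 known from hepatocytes around the central vein, was at 4.45 and 1.94 FPKM in KO pools and 0.851 and 2.12 FPKM in WT pools. KO replicate 1 was the highest and WT replicate 1 the lowest, the other pools were alike, and the gene did not pass (limma adjusted p = 0.304). Among the pericentral hepatocyte markers, the glutamine synthetase gene Glul, chosen after its values were seen, had the same order of pools. Glul was at 130 and 80.2 FPKM in KO pools and 60.3 and 97.6 FPKM in WT pools. Cyp1a2 had this order too, while Oat and Lhpp were highest in WT replicate 2. The whole list of 13 summed to 1876 and 1807 FPKM in KO pools and 1371 and 2022 FPKM in WT pools. Most of that sum was Cyp2e1, at 1488 and 1506 FPKM in KO pools and 1156 and 1579 FPKM in WT pools. Of the pericentral list 10 were tested, 2 rose and 0 fell, beside 1.60% and 3.14% of all tested genes. The part of these markers in the Slc1a2 values was not tested. Slc1a1, Slc1a3, Slc1a6 and Slc1a7 had at most 8 reads in any pool.

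Of the 21 Slc6 genes, 5 were tested and none passed. Among the 5, 3 had an unadjusted p under 0.05 (60%, beside 27.1% of all tested genes). Slc6a9 encodes GlyT1, which takes up glycine. It was at 6.18 and 5.84 FPKM in KO pools, against 9.08 and 10.6 FPKM in WT pools, with both KO pools below both WT pools. The log2 fold change was -0.66 (SE 0.12, limma adjusted p = 0.0578). It passed in 3 of 17 alternatives, over which the adjusted p ran from 0.0339 to 0.176.

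The carriers of GABA, betaine, taurine and creatine were among the tested genes. Slc6a13, for GAT2, a carrier of GABA and taurine, was at 49.9 and 35.5 FPKM in KO pools, against 26.1 and 30.2 FPKM in WT pools (log2 fold change 0.58, SE 0.20, limma adjusted p = 0.157). Without KO replicate 1 its log2 fold change was 0.34, and without KO replicate 2 it was 0.82. Slc6a12, for the betaine and GABA carrier BGT1, was at 24.4 and 23.9 FPKM in KO pools, against 19.3 and 19.5 FPKM in WT pools (log2 fold change 0.31, SE 0.10, limma adjusted p = 0.138). Both KO pools lay above both WT pools for each gene. The 2 genes are neighbours on chromosome 6, on the plus strand, with 5342 bases between them. Slc6a6, the taurine carrier gene, was at 11.6 and 12.3 FPKM in KO pools and 12.8 and 11.8 FPKM in WT pools (log2 fold change -0.032, SE 0.11, limma adjusted p = 0.871). Slc6a8, the creatine carrier gene, was at 3.81 and 3.49 FPKM in KO pools and 3.47 and 3.83 FPKM in WT pools. The groups overlapped for Slc6a6 and Slc6a8, with 95% confidence intervals of the log2 difference from -0.32 to 0.25 and from -0.33 to 0.33.

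The remaining Slc6 genes were under the filter. Slc6a19 encodes B0AT1, a neutral amino acid carrier known from intestine and kidney. Its mean of 0.859 FPKM came from 0.0784 and 0.338 FPKM in KO pools and 2.26 and 0.762 FPKM in WT pools, on 7 and 29 reads in KO pools and 191 and 60 reads in WT pools. Both KO pools were below both WT pools, but WT replicate 1 alone held most of the reads, and no test was made. Slc6a4, for the serotonin carrier that platelets also use, had 3 and 2 reads in KO pools, against 12 and 8 reads in WT pools. The 9 erythroid and platelet markers summed to 174 and 248 FPKM in KO pools, against 259 and 283 FPKM in WT pools. Of these markers 7 were tested and 1, Pf4, fell, beside 3.14% of all tested genes called lower, and none was at 0 in all libraries. Their part in the Slc6a4 reads was not tested. Slc6a16 had 11 to 17 reads in each pool, and Slc6a5, Slc6a7, Slc6a20a, Slc6a20b and Slc6a21 had at most 9. Slc6a20a and Slc6a20b are close paralogs that lie side by side, so the division of their reads is uncertain. Slc6a2 and Slc6a3, for the noradrenaline and dopamine carriers, were listed at 0 in all 4 libraries, as were Slc6a11, Slc6a14, Slc6a15, Slc6a17 and Slc6a18.

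Among the cationic amino acid transporters, Slc7a2 was the main liver gene. Slc7a2, for the arginine carrier CAT2, was at 25.3 and 18.4 FPKM in KO pools and 22.8 and 22.9 FPKM in WT pools (log2 fold change -0.080, SE 0.18, limma adjusted p = 0.803), and the KO pools lay on either side of the WT pools. Slc7a1, for the widespread carrier CAT1, was under the filter at 0.496 and 0.379 FPKM in KO pools, against 0.616 and 0.728 FPKM in WT pools. Slc7a4 had 21 and 25 reads in KO pools, against 7 and 10 reads in WT pools. Slc7a3 and Slc7a14 had at most 6 reads in any pool.

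None of the proton-coupled Slc36 or facilitated Slc43 carriers passed the test. Slc36a1, for the lysosomal carrier PAT1, was at 5.55 and 5.25 FPKM in KO pools and 6.11 and 5.31 FPKM in WT pools. Slc36a4 was at 3.56 and 3.42 FPKM in KO pools and 4.20 and 2.53 FPKM in WT pools. The groups overlapped for both genes, and Slc36a2 and Slc36a3 had at most 2 reads in any pool. Slc43a3, for a nucleobase carrier, was at 8.11 and 7.33 FPKM in KO pools, against 10.2 and 12.1 FPKM in WT pools, with both KO pools below both WT pools (log2 fold change -0.50, SE 0.13, limma adjusted p = 0.104). Slc43a2, for the large neutral carrier LAT4, was at 1.35 and 1.64 FPKM in KO pools and 2.16 and 1.63 FPKM in WT pools. Slc43a1, for LAT3, was under the filter at 0.981 and 0.755 FPKM in KO pools and 0.507 and 0.668 FPKM in WT pools. Slc7a6os was at 7.70 and 7.45 FPKM in KO pools and 9.25 and 10.8 FPKM in WT pools (log2 fold change -0.38, SE 0.12, limma adjusted p = 0.139).

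The pools of a group differed from each other about as much for these genes as for others. The ratio of the higher to the lower pool, on FPKM + 0.5, had a median of 1.09 in KO and 1.16 in WT over the 24 tested genes, beside 1.12 and 1.13 over all tested genes. In KO it was largest for Slc3a1, at 3.50, and for Slc1a2, at 2.03, and in WT for Slc1a4, at 2.30. KO replicate 1 was the highest of the 4 pools for 10 of the 24 genes (41.7%, beside 28.8% of all tested genes) and the lowest for 7.

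Lists of related genes set these values in context. Of 27 genes of the ATF4 and integrated stress response list, 23 were tested, 8 fell and 0 rose, with a median log2 fold change of -0.67. Among the 23, 16 had an unadjusted p under 0.05 (69.6%, beside 27.1% of all tested genes). Atf4, named with Asns after the values were seen, was at 73.2 and 78.7 FPKM in KO pools, against 109 and 153 FPKM in WT pools, and did not pass. Ddit3, for the stress factor CHOP, fell to 53.9 and 53.8 FPKM in KO pools, against 305 and 348 FPKM in WT pools (log2 fold change -2.59, SE 0.13, limma adjusted p = 0.0258). Atf3, for a stress-induced transcription factor, fell to 155 and 179 FPKM in KO pools, against 924 and 1015 FPKM in WT pools. Ppp1r15a, for a subunit that lifts the translation block of the stress response, fell to 15.3 and 16.6 FPKM in KO pools, against 59.5 and 86.3 FPKM in WT pools. These genes were far below both WT pools in both KO pools. Fgf21, for a hormone of the fasted liver, fell to 7.73 and 5.52 FPKM in KO pools, against 28.4 and 40.9 FPKM in WT pools. Asns, for asparagine synthetase, a classical gene of the amino acid response, was at 8.72 and 6.23 FPKM in KO pools and 3.33 and 4.42 FPKM in WT pools and did not pass. Of the 23 genes, 19 had a log2 fold change below 0 and 4 above. The summed neutrophil, cholangiocyte, sinusoidal endothelial, monocyte, and erythroid and platelet markers were lower in the same KO pools, and their part in these values was not tested.

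Enzymes that break down amino acids were seldom called. Of 36 genes, 35 were tested, 1 rose, 1 fell and 33 did not pass (median log2 fold change 0.15). Over all tested genes, 1.60% were called higher and 3.14% lower. Among the 35, 24 log2 fold changes were above 0 and 11 below. An unadjusted p under 0.05 was found for 8, of which 6 were higher and 2 lower (22.9%, beside 27.1% of all tested genes). Bcat2, for the mitochondrial branched-chain aminotransferase that acts on leucine, rose to 10.7 and 7.64 FPKM in KO pools, against 3.52 and 4.01 FPKM in WT pools (limma adjusted p = 0.0494). Got1, for the cytosolic aspartate aminotransferase, fell to 53.6 and 58.4 FPKM in KO pools, against 100.005 and 121 FPKM in WT pools (limma adjusted p = 0.0433). Of 10 tested genes of the urea cycle and ammonia list, 0 passed the limma test (median 0.13). Among them 3 had an unadjusted p under 0.05 (30%, beside 27.1% of all tested genes).

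Enzymes that make or use GABA, taurine, creatine, betaine and glycine, substrates of the Slc6 carriers, had 11 of 15 values above 0. Over all 11900 tested genes, 6111 were above 0. Other lists leaned the same way, with 24 of 35 for amino acid breakdown, 7 of 10 for the urea cycle and ammonia, and 7 of 11 for transporters of other Slc families. For amino acid sensing it was 15 of 25, and for the ATF4 list 4 of 23. Both KO pools lay above both WT pools for 8 of the 15 and below them for 2, beside 31.6% and 29.9% of all tested genes. Of 15 tested genes, 2 rose and 0 fell (median log2 fold change 0.40). Among them 8 had an unadjusted p under 0.05 (53.3%, beside 27.1% of all tested genes). Chdh, which makes betaine precursor from choline, rose to 43.1 and 36.4 FPKM in KO pools, against 8.80 and 8.22 FPKM in WT pools. Bhmt2, a methyltransferase related to the betaine-using enzyme Bhmt, rose to 90.3 and 78.1 FPKM in KO pools, against 32.3 and 39.2 FPKM in WT pools. Sardh, for sarcosine dehydrogenase, was at 72.8 and 67.3 FPKM in KO pools, against 47.1 and 46.5 FPKM in WT pools, and did not pass (limma adjusted p = 0.0596). Abat, which breaks down GABA, was at 31.0 and 23.2 FPKM in KO pools, against 9.04 and 15.0 FPKM in WT pools, and did not pass (limma adjusted p = 0.0914).

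Of 25 tested genes of amino acid sensing upstream of mTORC1, 1 fell and 0 rose (median log2 fold change 0.031), beside 3.14% and 1.60% of all tested genes. Among the 25, 6 had an unadjusted p under 0.05, of which 4 were higher and 2 lower (24%, beside 27.1% of all tested genes). The gene that fell was Sesn2, for the leucine sensor Sestrin2, at 4.18 and 4.52 FPKM in KO pools, against 14.6 and 25.4 FPKM in WT pools (limma adjusted p = 0.0392). Sesn2 is also in the ATF4 list. Of 11 tested amino acid transporters of other Slc families, 0 passed the limma test (median 0.23). Among them 3 had an unadjusted p under 0.05 (27.3%, beside 27.1% of all tested genes).

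**Figure D5:**
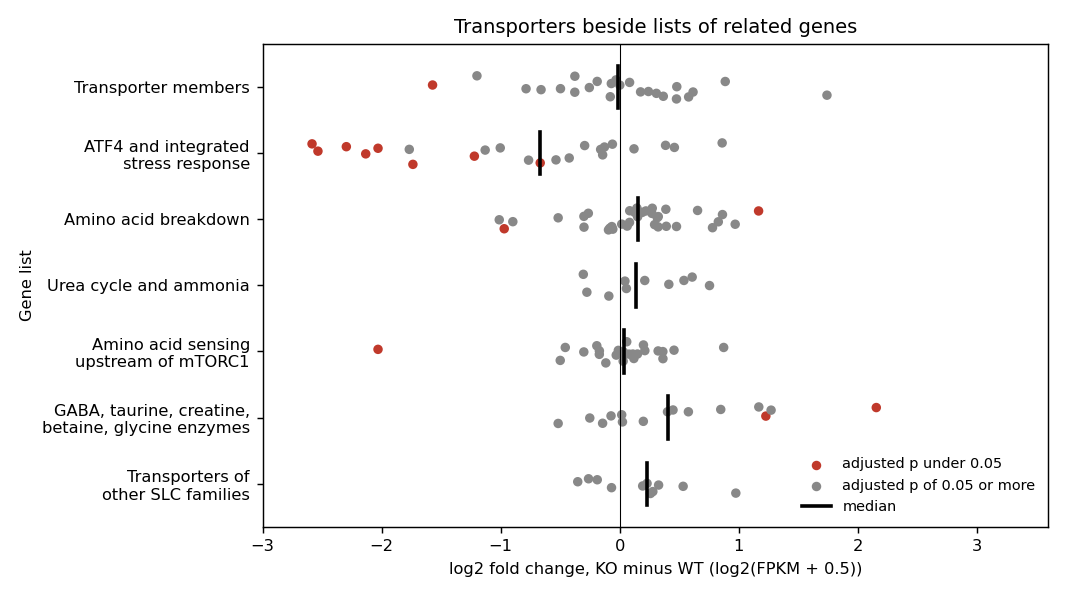
Log2 fold change, KO minus WT, of the tested transporter genes (top) and of 6 lists of related genes, with a point per gene, red for an adjusted p under 0.05 and a black bar at the list's median. The transporters centre on 0 with Slc7a5 as the red point at -1.57, and the ATF4 list has 8 red points, all below 0.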

How the data were processed

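RNA was poly(A)-selected and primed with random hexamers, per the labels' protocols, which do not state strand marking. Reads had been aligned with HISAT2 2.0.5 against mm10, named as GRCm38.p6 too in the submitters' processing notes. Neither labels nor notes name the counter or the annotation release. The authors deposited 1 table of FPKM, and 0 of its sample columns were left out. FPKM times gene length was a whole multiple of 1 step per library within 0.01 read for 100% of values, so reads were recovered.

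KO and WT were compared with limma 3.58.1 (R 4.3.3, mean-variance trend, two-sided, 2 residual degrees of freedom) on log2(FPKM + 0.5), for genes averaging 1 FPKM or more, a scale that understates changes of low genes. The fit was tested on simulated data, where more of its calls were false than the threshold names. Alternatives covered pseudocount, filter, scaling, prior, limma voom, biotype, a replicate block and each library left out. No added alternative was used.

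Full values were given for members past the threshold, the 12 with the highest mean, members without overlap and a log2 change of at least 1, and subunit partners, and for up to 4 genes of a list by smallest p. The members, lists and rules were chosen with earlier results of these data known. The pools are separate samples per the labels. The listed symbols Tf, Amy2a5, Castor1, Castor2, Samtor, Glyatl1, Slc66a1 and Slc66a4 were not matched. Promoters had been planned for called genes and were instead taken for a pair with entries. Promoter windows came from RefSeq (GRCm38.p6). Figures were drawn with matplotlib 3.10.9.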

Additional observations from a re-analysis of the deposited data

How the results depend on the processing

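Slc7a5 was called lower in 12 of its 16 alternatives, and Slc38a2, Slc6a9 and Slc1a4 did not pass the main test but passed in 6, 3 and 2 of 17. The count of transporter genes called lower, 1 as reported, was 0 with no filter on low values, 2 with a mean of at least 5 FPKM, 2 with scaling by the median of ratios, 2 with FPKM rescaled to 1 total, 2 with FPKM rebuilt from each library's own listed reads, 3 with limma voom on recovered reads and 3 with protein-coding genes alone. Leaving out each library gave 0 to 1 lower and 0 to 1 higher, and limma voom gave 1 higher. Over all genes, 564 calls became 0 with no filter (26643 genes tested, 4388 with an unadjusted p under 0.05), 280 without the trend, 1105 with limma voom and 1014 with protein-coding genes alone, and 0 to 234 without 1 library, where the lone sample of a group is assumed to vary like the other group. With FPKM rebuilt from listed reads the split was 211 higher and 255 lower, against 190 higher and 374 lower. The cause of these shifts was not tested.

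The replicate block gave 310 calls over all genes and 1 transporter gene lower, Slc7a5. Same-numbered libraries did not deviate together (correlation across genes -0.14). With 2 pools per group this cannot tell whether they shared a batch, and the labels give only a replicate number. The block changed no other call among the transporter genes.

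Slc6a6 turned to 0.0074 when rescaled to 1 total and 0.0292 when rebuilt from listed reads, with -0.0884 to 0.0241 without 1 library. Slc6a8 turned to 0.035 with quantile scaling, 0.0363 when rescaled to 1 total, 0.0563 when rebuilt from listed reads and 0.0025 with limma voom, with -0.0624 to 0.0624 without 1 library. Without 1 library the log2 fold change spanned -0.31 to 0.15 for Slc7a2, -1.69 to 0.12 for Slc3a1, -0.49 to 0.11 for Slc7a8, -0.78 to 0.021 for Slc7a7, -0.16 to 0.021 for Slc36a1 and -0.23 to 0.40 for Slc36a4. It kept its sign but moved by over 1.5 times for Slc1a2 (0.37 to 1.40), Slc43a2 (-0.42 to -0.095) and Slc38a10 (0.11 to 0.24), and for Slc38a3, Slc38a4, Slc6a13 and Slc1a4 as given with those genes. For the 28 genes with under 10 reads in every library, differences were not detectable at this depth.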
